A study of Mus musculus with 4 samples.

Results

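The cytosolic ribosomal protein genes of the mouse were examined in 4 lists of Sox2 binding sites. They were taken by symbol: Rpl or Rps followed by a number, with an optional ending a, x or l, together with Rplp0, Rplp1, Rplp2 and Rpsa, from the protein-coding genes of RefSeq for GRCm38.p6, which shares its chromosome coordinates with mm10. This gave 81 members of 21887 protein-coding genes, 50 of the large and 31 of the small subunit. Pseudogenes and the Rps6k kinases were left out. The rule used names alone and no measured value.

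Binding was measured by ChIP-exo, in which an exonuclease trims the isolated DNA up to the bound protein, in D3 mouse embryonic stem cells. There was 1 library for each of 4 proteins. Endogenous Sox2 was isolated with an antibody to Sox2. The other 3, named Halo-Sox2, Halo-Sox2M and Halo-Sox2D, were fusions to HaloTag, a tag that binds a resin covalently, and were isolated on HaloLink resin. Halo-Sox2M carries the changes labelled M47G, F50 and M51G, the second of which is given without a replacing residue, and Halo-Sox2D keeps residues 1 to 120 of Sox2. How the fusions were expressed, whether a line was a single clone and whether the fusion lines kept their own Sox2 is not stated in the labels. A deposited list holds positions only, so that it says where a peak was called and not how strong it was. The Halo-Sox2D list was the longest with 13833 peaks, followed by 7153 for endogenous Sox2, 6558 for Halo-Sox2 and 1711 for Halo-Sox2M, with a median width of 11 bp in each. Read depth is unknown, and a longer list cannot be told apart from deeper sequencing or a looser threshold. With 1 library per group there was no replicate check and no test between proteins. Intervals are 95% Wilson intervals over genes and cover counting error only. The lists hold no expression values, so the label of the cells was not checked against markers.

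Ribosomal proteins coat the ribosomal RNA of the cytoplasmic ribosome, and their genes are transcribed strongly in growing cells such as embryonic stem cells. The promoters commonly lack a canonical TATA box, hold sites for ETS-family factors and other general activators, and start transcription at a C within a run of pyrimidines. That run becomes the terminal oligopyrimidine (TOP) start of the mRNA, through which mTOR signalling adjusts translation. Sox2 is an HMG-box factor that works with Oct4 at enhancers of pluripotency genes.

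Of the promoters with a peak near the start of transcription, 7 are shown in sequence, the 2 that held peaks of several proteins first. The 7 are a selection and not all such promoters. They are shown because the results turn on how close the peaks lie to the start. Each runs 5′ to 3′ on the coding strand, from 30 bases before the first peak base to base 30 after the start, counting the first transcribed base as 1. Capitals mark the bases under a called peak. The sequences are from the RefSeq promoter table (GRCm38.p6), which held 61 of the 81 members.
Rps3 (chr7:99483680-99483942, minus strand): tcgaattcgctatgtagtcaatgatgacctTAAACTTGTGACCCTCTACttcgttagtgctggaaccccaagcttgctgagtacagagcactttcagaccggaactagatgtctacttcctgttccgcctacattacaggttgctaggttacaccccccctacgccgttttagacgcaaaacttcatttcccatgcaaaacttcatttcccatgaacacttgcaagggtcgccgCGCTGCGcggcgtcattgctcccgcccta
Rps9 (chr7:3704020-3704070, plus strand): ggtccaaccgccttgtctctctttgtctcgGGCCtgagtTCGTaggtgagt
Rps21 (chr2:180257165-180257408, plus strand): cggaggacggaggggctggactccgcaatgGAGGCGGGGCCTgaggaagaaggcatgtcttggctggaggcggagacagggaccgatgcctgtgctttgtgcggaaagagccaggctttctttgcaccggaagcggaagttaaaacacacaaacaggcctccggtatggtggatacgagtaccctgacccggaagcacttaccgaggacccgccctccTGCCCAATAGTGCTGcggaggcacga
Rplp2 (chr7:141447511-141447680, plus strand): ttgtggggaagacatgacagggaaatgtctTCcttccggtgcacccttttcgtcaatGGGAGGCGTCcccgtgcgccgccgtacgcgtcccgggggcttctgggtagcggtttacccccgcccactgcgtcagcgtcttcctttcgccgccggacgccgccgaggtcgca
Rps28 (chr17:33824533-33824703, minus strand): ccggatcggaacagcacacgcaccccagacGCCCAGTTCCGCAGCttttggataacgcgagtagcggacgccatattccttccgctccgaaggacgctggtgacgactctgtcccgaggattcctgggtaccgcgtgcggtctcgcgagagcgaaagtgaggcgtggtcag
Rpl27 (chr11:101442143-101442274, plus strand): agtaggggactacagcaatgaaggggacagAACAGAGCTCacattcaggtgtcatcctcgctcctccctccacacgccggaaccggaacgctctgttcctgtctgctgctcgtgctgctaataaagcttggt
Rpl10 (chrX:74270784-74270845, plus strand): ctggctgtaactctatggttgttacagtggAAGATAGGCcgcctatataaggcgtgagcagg

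In the Rps3 sequence the first block of capitals is a Halo-Sox2M peak and the second a Halo-Sox2 peak. In that of Rps9 the first block is a Halo-Sox2D peak and the second a Halo-Sox2M peak. The capitals in the other 5 sequences are Halo-Sox2D peaks.

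The truncated Halo-Sox2D was the protein found most often at ribosomal protein genes. A peak centre lay within 1 kb of either end of the gene at 23 of 81 members in the Halo-Sox2D list (28.4%, 19.7 to 39.0%), against 12.5% of all protein-coding genes. The other lists each had such a peak at 3 members (3.70%, 1.27 to 10.3%). For Halo-Sox2 this is close to the 3.00% of all protein-coding genes. For endogenous Sox2 the share of all genes was 1.69%, which lies within the interval of the members. For Halo-Sox2M it was 0.736%, below the interval, but the members' share rests on 3 genes. In all, 25 members had such a peak in at least 1 library and 56 (69.1%) had none, while 84.2% of all protein-coding genes had none. The 3 members with a Halo-Sox2 peak were all among the 23 with a Halo-Sox2D peak. So were 2 of the 3 with endogenous Sox2 and 2 of the 3 with Halo-Sox2M. Over all protein-coding genes, 221 of the 657 with a Halo-Sox2 peak also had a Halo-Sox2D peak. It was 156 of 369 for endogenous Sox2 and 45 of 161 for Halo-Sox2M. With 3 members per list, the overlaps are too small to set apart from those of all genes.

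**Figure D1:**
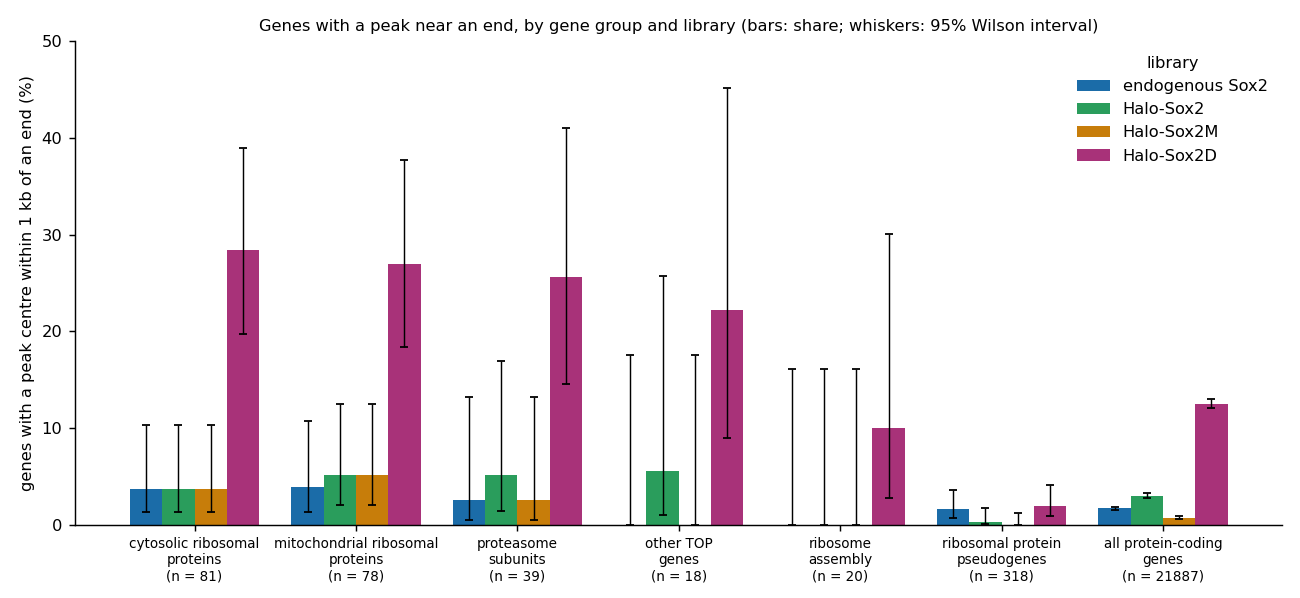
Share of genes (vertical axis, percent) with a peak centre within 1 kb of an end, for 7 gene groups (horizontal axis, with the number of genes) and the 4 libraries (colours), with 95% Wilson intervals as whiskers. Halo-Sox2D stands at 28.4% of cytosolic ribosomal protein genes, 26.9% of mitochondrial ones and 25.6% of proteasome genes, against 12.5% of all protein-coding genes.

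Among the 23 members with a Halo-Sox2D peak near an end, Rps21, Rplp2 and Rps19 had 2 such peaks and the other 20 had 1. Rps21 (chromosome 2, 180257379 to 180258444), a small protein of the small subunit, had its peaks at 180257195 to 180257206 and 180257383 to 180257397, on either side of the first of its starts in the table. It had 0 peaks in the other 3 libraries. Rplp2 (chromosome 7, 141447651 to 141451359) encodes an acidic protein of the stalk that recruits translation factors, and its Halo-Sox2D peaks centred 78.5 and 109.5 bp upstream of the start. Rps19 (chromosome 7, 24884592 to 24889811), whose human counterpart is mutated in Diamond-Blackfan anaemia, had peaks centred 500 and 553.5 bp upstream. Thus all 3 genes with a pair of peaks held at least 1 of them before the start.

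The nearest Halo-Sox2D peak lay under 250 bp from an end at 16 of the 23 genes. The same share was not counted over all protein-coding genes with a Halo-Sox2D peak near an end. At Rpl10, whose protein joins the large subunit late in its assembly, the peak (X chromosome, 74270814 to 74270822) covered the start itself, its centre 2.0 bp from it. The centre lay 47 bp inside Rpl6 and 47.5 bp inside Rpl35, a protein at the exit of the peptide tunnel, measured from their starts. It lay 114.5 bp inside Rpl41, which encodes the shortest of the ribosomal proteins. Upstream peaks centred 67.5 bp before the start of Rpl27, 104.0 bp before that of Rps28 and 172.5 bp before that of Rps18. The peak at Rpl5, whose protein binds Mdm2 when ribosome assembly is disturbed, was farther upstream, at 718.0 bp.

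Strand was not available for the members outside the promoter table, and for these the distance is to the nearer end. It was 237.0 bp at Rpl3, whose protein reaches towards the peptidyl transferase centre, and 324.0 bp at Rps27a, which encodes a fusion of ubiquitin to a ribosomal protein. Some members with a known start had their Halo-Sox2D peak at the other end of the gene instead. At Rps2 the peak lay inside the gene, 579.0 bp from the other end and 1285.0 bp downstream of the start. Rpl7a and Rpl12 (named after their values were seen) had theirs beyond the other end, by 703.0 and 982.0 bp, which is 3208.0 and 3315.0 bp downstream of their starts. Rpl12 was the member just inside the limit of 1 kb. Rps26, with a peak 1112.0 bp beyond its other end, was the first outside it.

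**Figure D2:**
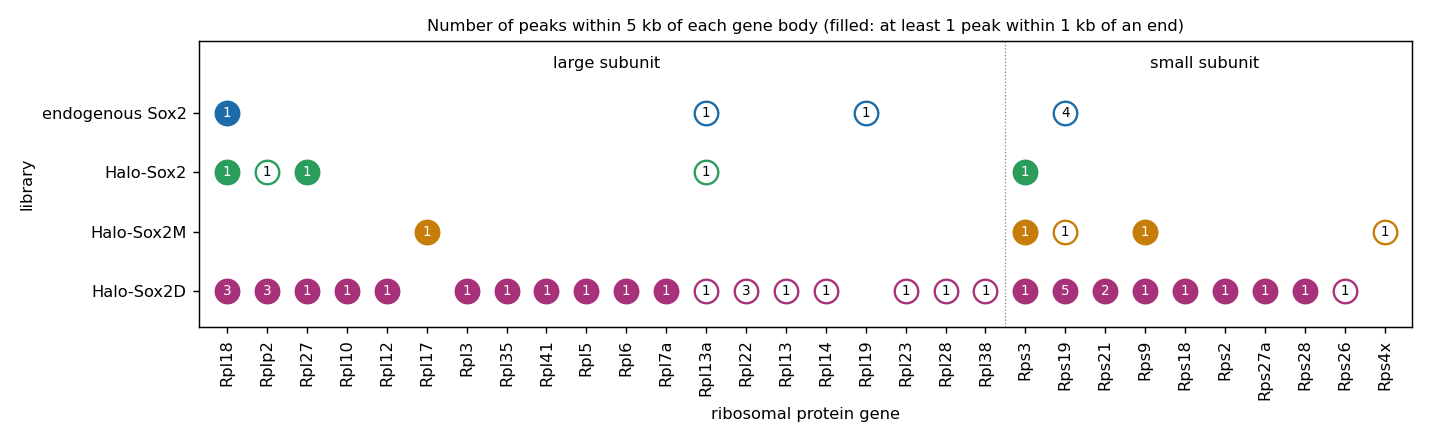
Number of peaks within 5 kb of the body (numbers in circles) of 30 of the 35 members that had any, by gene (horizontal axis, large subunit left and small subunit right) and library (vertical axis). Filled circles mark genes with a peak within 1 kb of an end: of the genes drawn, 19 in the Halo-Sox2D row, 3 each in those of Halo-Sox2 and Halo-Sox2M and 1 in that of endogenous Sox2.

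Halo-Sox2D peaks were found at both ends of the members, and at the start more often than at the other end. Of the 61 members with a known start, 15 had a Halo-Sox2D peak within 1 kb of a start (24.6%, 15.5 to 36.7%), against 12.3% of the 17492 protein-coding genes of the table. At the other end 4 did (6.56%, 2.58 to 15.7%), against 2.18% of all genes. Both shares of all genes lie below the members' intervals. Starts outnumbered other ends in all genes as well, 2150 genes to 382. Within 1 kb of a start there was 1 member for endogenous Sox2 (Rpl19, 1.32% of all genes), and there were 2 for Halo-Sox2 (2.61% of all genes) and 2 for Halo-Sox2M (0.657% of all genes). At the other end there were 0 for endogenous Sox2 (0.497% of all genes), 1 for Halo-Sox2 (0.743% of all genes) and 0 for Halo-Sox2M (0.103% of all genes). The 19 Halo-Sox2D peaks within 1 kb of a member's start lay at a median distance of 78.5 bp, 10 of them upstream and 9 downstream, and 16 lay within 250 bp. Over all protein-coding genes the median distance was 165.5 bp, and 1665 of 2579 peaks were upstream. Of these 2579 peaks 1628 lay within 250 bp (63.1%, against 84.2% of the members' 19).

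Around the start, within the table's window from 250 bases before to 50 after it, 11 of 61 members had a Halo-Sox2D peak (18.0%, 10.4 to 29.5%), against 6.89% of all genes. For Halo-Sox2M it was 2 members (3.28%, 0.904 to 11.2%) against 0.354%, for Halo-Sox2 1 member (1.64%, 0.290 to 8.72%) against 1.09%, and for endogenous Sox2 0 members (upper limit 5.92%) against 0.646%. The 11 genes with Halo-Sox2D included Rpl22, which had no peak within 1 kb of an end. Its peak in the window was centred 31.0 bp downstream of an alternative start, 1321 bp from the nearer end of the gene.

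**Figure D3:**
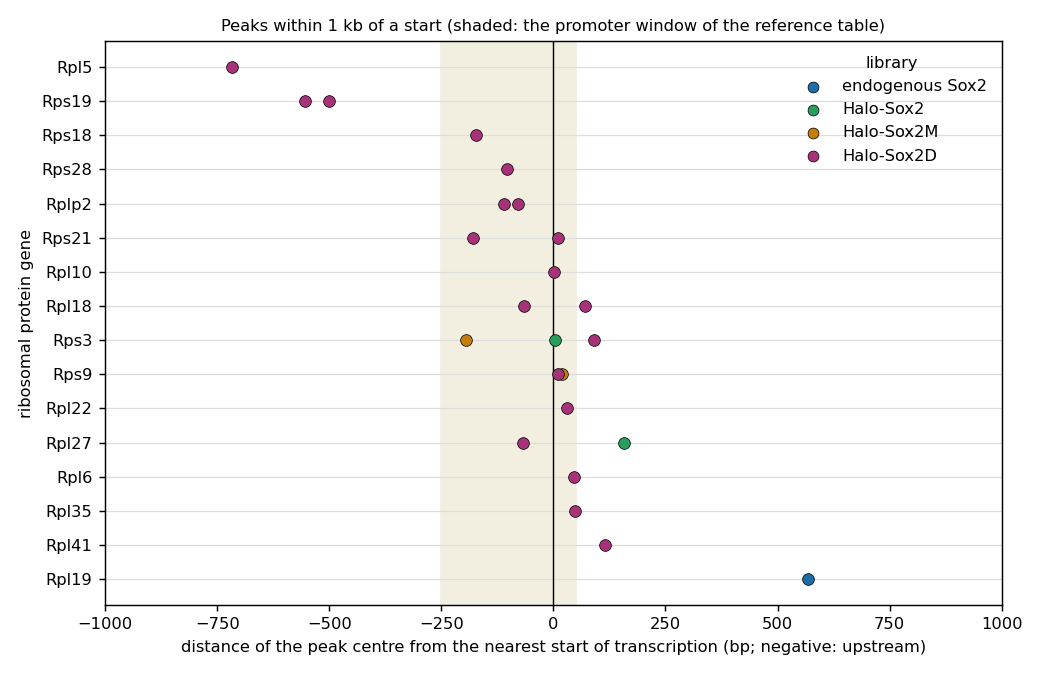
Distance of each peak centre from the nearest start of transcription (horizontal axis, bp, negative upstream) at the members with a peak within 1 kb of a start (vertical axis), coloured by library, with the promoter window shaded. Of the 19 Halo-Sox2D peaks 16 lie within 250 bp of a start, against 63.1% of such peaks over all protein-coding genes. The Halo-Sox2D and Halo-Sox2M peaks of Rps9 lie side by side.

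Endogenous Sox2 had a peak near an end of 3 members, none of them at a start given by the promoter table, and Rpl18 is described here. At Rpl18 (chromosome 7, 45715467 to 45720835), a protein of the large subunit, the peak lay 59.0 bp below the lower end of the annotated body, at 45715399 to 45715417. That is 2663.0 bp upstream of the start in the promoter table, and within the neighbouring gene Sphk2, named because the peak falls in it. None of the 61 members in the promoter table had an endogenous Sox2 peak in a promoter window.

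Halo-Sox2 had a peak near an end of Rps3, Rpl27 and Rpl18. At Rps3 (chromosome 7, 99477896 to 99483709), which lines the channel where mRNA enters the ribosome, the peak at 99483702 to 99483708 covered bases 2 to 8 after the start. At Rpl27 (chromosome 11, 101442245 to 101445596), a protein of the large subunit, it lay at 101442394 to 101442413, centred 158.5 bp downstream of the start. At Rpl18 it lay beyond the upper end by 313.0 bp, at 45721142 to 45721154. Among members with a known start, Halo-Sox2 therefore lay within 1 kb of it at Rps3 and Rpl27 alone.

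Halo-Sox2M had a peak near an end of Rps3, Rps9 and Rpl17. At Rps9 (chromosome 7, 3703954 to 3706897), a protein that binds ribosomal RNA early in small-subunit assembly, the peak at 3704059 to 3704062 covered bases 19 to 22. At Rps3 the peak at 99483894 to 99483912 lay upstream, centred 194.0 bp before the start. At Rpl17 (chromosome 18, 74998978 to 75003381), a protein beside the peptide exit tunnel, the peak at 75003002 to 75003007 lay inside the gene, 376.5 bp from the nearer end. Rpl17 had no peak of any other library within 5 kb, so of the members reached by Halo-Sox2M near an end it alone lacked Halo-Sox2D.

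Peaks of different libraries met at 5 of the 81 members, that is, their centres lay within 500 bp of each other and within 5 kb of the body (6.17%, 2.67 to 13.6%). Of all protein-coding genes 6.56% had such a place, and of those with a body of at most 10 kb 2.96%. At Rps9 the centres of the Halo-Sox2D and Halo-Sox2M peaks were 9.0 bp apart without overlapping. At Rps3 the Halo-Sox2 centre was 87.5 bp from that of Halo-Sox2D (99483614 to 99483621) and 198.0 bp from that of Halo-Sox2M, with the last upstream of the start and the others downstream. At Rpl18 endogenous Sox2 and Halo-Sox2D (45715316 to 45715328) were 86.0 bp apart, while the other 2 Halo-Sox2D peaks lay 65.0 bp before and 70.0 bp after the start in the table, and at Rpl27 Halo-Sox2 and Halo-Sox2D were 226.0 bp apart on either side of the start.

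The densest place lay below Rps19. In a stretch of 179 bp of chromosome 7, from 24879680 to 24879858, lay 4 peaks of endogenous Sox2, 3 of Halo-Sox2D, 1 of Halo-Sox2M and 0 of Halo-Sox2. An endogenous Sox2 peak (24879719 to 24879732) and a Halo-Sox2D peak (24879722 to 24879736) overlapped, the only overlapping pair from different libraries at any member. The place is 4.82 kb upstream of Rps19 and nearer, at 2.11 kb, to Dmrtc2, a gene named after its position was seen, so it is not tied to Rps19 by distance. No sequence of this place was used here. Apart from it, the pairs at Rps3, Rps9, Rpl18 and Rpl27 lay within 1 kb of an end.

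Within 5 kb of the body Halo-Sox2D again had a peak at more members than any other library. It had one there at 31 of 81 members (38.3%, 28.4 to 49.2%), against 30.4% of all protein-coding genes, a share that lies within the interval. Endogenous Sox2 and Halo-Sox2 had 6 each (7.41%, 3.44 to 15.2%), against 10.4 and 13.0%, which also lie within the interval. Halo-Sox2M had 5 (6.17%, 2.67 to 13.6%), against 2.15%, which lies below it. Ribosomal protein genes are short, with a median of 3175 bp against 17170 bp for all protein-coding genes, and a longer body gives a wider window. Among the 7926 genes with a body of at most 10 kb the shares were 18.7% for Halo-Sox2D, 4.00% for endogenous Sox2, 5.74% for Halo-Sox2 and 1.36% for Halo-Sox2M.

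The 8 members added by the wider window in the Halo-Sox2D list included Rpl13a and Rpl22, the latter with 3 peaks. A Halo-Sox2 peak (chromosome 7, 45127439 to 45127451) lay inside Rpl13a, over the small nucleolar RNA gene Snord32a that the gene hosts. In Halo-Sox2M the window added Rps19 and Rps4x, the X-linked small-subunit gene, with a peak 1557.5 bp upstream of its start. Of the 81 members 46 (56.8%) had no peak of any library within 5 kb. Among the 46 were the 5 whose symbol ends in l (Rpl3l, Rpl10l, Rpl32l, Rpl39l and Rps27l, chosen after their values were seen), 0 of which had a peak. The share of all protein-coding genes without a peak of any library in this window was not counted. Neither count is therefore read as a trait of the members. The median distance from a member to the nearest peak was 17.3 kb in Halo-Sox2D, 94.5 kb in endogenous Sox2, 118 kb in Halo-Sox2 and 655 kb in Halo-Sox2M. This is also the order of the lists from longest to shortest, and the distance over all protein-coding genes was not computed. The members just outside the limit of 5 kb were Rps23 at 5.34 kb in Halo-Sox2 and Rpl32l at 6.36 kb in Halo-Sox2D.

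Some of these peaks lay as near to another gene. At 7 of the 23 members with a Halo-Sox2D peak near an end, such a peak also lay within, or within 1 kb of an end of, another protein-coding gene. They include the neighbours Pidd1 at Rplp2, Vps52 at Rps18, Ndufa7 at Rps28 and Clhc1 at Rps27a, so that a peak there cannot be assigned to 1 gene. Rps21 and Rpl10 had no such protein-coding neighbour. At 4 of the 23 a small nucleolar RNA gene lay within 1 kb of the peak, Snord15a at Rps3 and Snord43 at Rpl3 among them. Neither neighbour count was made over all protein-coding genes with a Halo-Sox2D peak near an end, so neither is read as a trait of the members.

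Similar shares were found at genes of the mitochondrial ribosome and the proteasome. Halo-Sox2D had a peak within 1 kb of an end at 21 of 78 mitochondrial ribosomal protein genes (26.9%, 18.3 to 37.7%) and at 10 of 39 proteasome subunit genes (25.6%, 14.6 to 41.1%). Other genes with a TOP start, which encode translation factors and related proteins, had 4 of 18 (22.2%, 9.001 to 45.2%), and genes of ribosome assembly 2 of 20 (10%, 2.79 to 30.1%). The intervals of all 4 groups overlap that of the cytosolic ribosomal protein genes. Over all 7926 genes with a body of at most 10 kb the share was 10.51% (9.85 to 11.2%). Ribosomal protein pseudogenes, copies of the mRNAs without the promoters, had 6 of 318 (1.89%, 0.868 to 4.05%). Halo-Sox2M had 4 of 78 mitochondrial ribosomal protein genes and 0 of 318 pseudogenes (upper limit 1.19%). Endogenous Sox2 had 3 of 78 and 5 of 318, and Halo-Sox2 had 4 of 78 and 1 of 318.

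The promoter windows of the members shared sequence features that the rule did not use. The ETS core CGGAAG, searched on both strands like the other letters, was in 41 of 61 members (67.2%, 54.7 to 77.7%) and in 23.5% of all protein-coding genes of the table. A run of at least 6 pyrimidines covering the first transcribed base was in 20 (32.8%, 22.3 to 45.3%) against 7.35%. It can be seen in the Rps9, Rplp2 and Rps21 windows. The GC box GGGCGG was in 36 (59.0%) against 49.2%, the TATA box TATAAA in 7 (11.5%) against 14.8%, and the YY1 core AAGATGGC in 5 (8.20%) against 3.57%. The Sox core CATTGTT was in 0 of 61 members (upper limit 5.92%) against 3.86% of all genes, and the octamer ATGCAAAT in 0 against 1.90%. A window of this length without these exact letters says nothing of binding by Sox2 or Oct4.

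Only 11 members had a Halo-Sox2D peak in the window, too few to tell whether they held these letters as often as all members did. Of the 11 with a peak in the window, 7 held CGGAAG (63.6%, 35.4 to 84.8%), among them Rpl10, Rplp2, Rps21 and Rps28, and 5 held the pyrimidine run (45.5%, 21.3 to 72.0%). The GC box GGGCGG was in 6 of the 11 (54.5%, 28.0 to 78.7%). Of all 1205 protein-coding genes with a Halo-Sox2D peak in the window, 40.2% held CGGAAG, 70.5% held GGGCGG and 4.90% held CATTGTT. Base composition was near that of other promoters, with a median of 57.7% G and C over the members' 73 windows and 56.3% over all 21263.

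**Figure D4:**
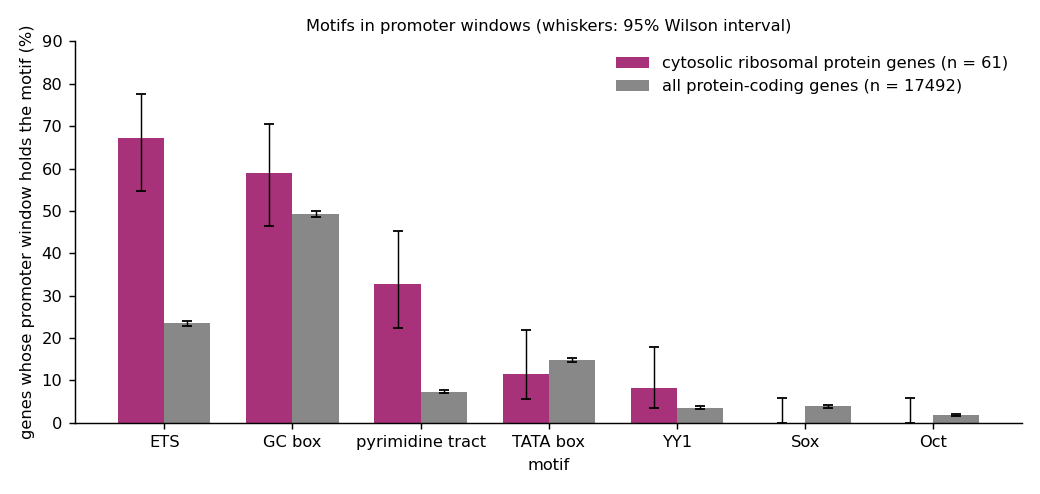
Share of genes (vertical axis, percent) whose promoter window holds each motif (horizontal axis), for 61 cytosolic ribosomal protein genes and all 17492 protein-coding genes of the promoter table, with 95% Wilson intervals as whiskers. The ETS core (67.2 against 23.5%) and the pyrimidine run (32.8 against 7.35%) are more frequent in the members.

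Both subunits were represented. Halo-Sox2D had a peak near an end at 12 of 50 large-subunit genes (24.0%, 14.3 to 37.4%) and at 11 of 31 small-subunit genes (35.5%, 21.1 to 53.1%), with overlapping intervals, against 12.5% of all protein-coding genes. Halo-Sox2M had 1 of 50 and 2 of 31, against 0.736% of all genes. Endogenous Sox2 had 1 of 50 and 2 of 31, against 1.69%, and Halo-Sox2 2 of 50 and 1 of 31, against 3.00%. These counts are too small to compare the subunits.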

How the data were processed

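Each library of D3 cells was its own group. Per the submitters' processing notes, Bowtie2 and mm10 were used. Neither the peak caller nor its settings, nor any filter on reads, is stated in the labels. The deposited lists hold chromosome, start and end (unit: coordinates, with no count, score or other signal), 1 list per library, so a stricter threshold could not be tried. Starts were read as 0-based and are printed 1-based.

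Gene positions were those of RefSeq for GRCm38.p6 (autosomes, X and Y), and starts and strand those of its promoter table. Exons and introns were not told apart. Genes with a peak centre within 1 kb of an end or 5 kb of the body were counted in Python 3.11.15 (numpy 2.4.6, pandas 2.3.3, scipy 1.17.1). bedtools 2.31.1 gave the same 5 kb counts, and the counting was tested on simulated data. Named were members with a near-end peak in endogenous Sox2, Halo-Sox2 or Halo-Sox2M, those where libraries met, and 20 in Halo-Sox2D by number and then nearness of peaks. Members, lists and windows were chosen with earlier results of these data known. Some members that met this rule are counted but not reported here by name. The pyrimidine run was added after the data were seen.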

Additional observations from a re-analysis of the deposited data

How the results depend on the processing

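Of 66 alternative counts over the members, 54 lay within 1.5 times the reported one. Within 0.5 kb of an end endogenous Sox2 had 1 member (1.23%, against 1.08% of all genes), Halo-Sox2 and Halo-Sox2M 3 each (3.70%, against 2.11 and 0.544%) and Halo-Sox2D 18 (22.2%, against 9.68%). Within 2 kb Halo-Sox2D had 28 (34.6%, against 15.95%). Starts alone, over 61 members, gave 15 for Halo-Sox2D and 1 for endogenous Sox2. That fall follows in part from testing fewer genes and 1 end. Inside the body there were 1 (endogenous Sox2, 1.23% against 7.41% of all genes), 3 (Halo-Sox2, 3.70% against 9.05%), 2 (Halo-Sox2M, 2.47% against 1.31%) and 11 members (Halo-Sox2D, 13.6% against 20.4%). Within 50 kb there were 23 (28.4% against 27.4%), 23 (28.4% against 32.3%), 10 (12.3% against 6.37%) and 60 (74.1% against 57.7%) in the same order. The Halo-Sox2D share was thus below that of all genes inside the body and above it in the other windows. The bodies differ in length, with a median of 3175 bp in the members and 17170 bp in all protein-coding genes. The inside-body share of genes with a body of at most 10 kb was not counted, so that contrast is not adjusted for length. Libraries met within 50 bp at 2 members in place of 5 (2.47%, against 4.41% of all genes). Placing any base of a peak, leaving out the 14 bins of 100 kb with 15 or more peaks (0 members lie near one), leaving out symbols ending in l, adding 4 further genes of ribosomal proteins or their paralogs (Fau, Rack1 and Rpl36al among them), or adding Rps3a1 (chosen after seeing the data) kept each count within 1.5 times. No paired analysis was possible because each group has 1 library. Unknown depth limits all absences, since a gene without a peak may lie under the calling threshold.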

Other observations

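Members with peaks were unevenly spread over chromosomes. Chromosome 7 holds 14 of the 81 members, and 8 of these had a Halo-Sox2D peak within 1 kb of an end (57.1%, 32.6 to 78.6%), against 12.02% of all 2030 protein-coding genes there. Each of the other libraries had such a peak at 2 of the 14 (14.3%, 4.01 to 39.9%), against 1.87% of all genes there for endogenous Sox2, 2.86% for Halo-Sox2 and 0.345% for Halo-Sox2M. Among them were Rps3 and Rpl18 for Halo-Sox2 and Rps3 and Rps9 for Halo-Sox2M. On chromosome 2 all 4 members (Rpl7a, Rpl12, Rpl35 and Rps21) had a Halo-Sox2D peak near an end, against 11.9% of all genes there, while 0 of 5 on chromosome 4 and 0 of 7 on chromosome 9 had one, against 13.3 and 12.7%. These chromosomes were singled out after their values were seen, and no test was made. Within 5 kb of the body, 1 member on chromosome 4 and 1 on chromosome 9 had a Halo-Sox2D peak. The one on chromosome 4 was Rpl22, with a peak centred 31.0 bp downstream of an alternative start.

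Of the 35 members with a peak within 5 kb of the body, 27 had peaks of 1 library alone, 3 of 2 libraries and 5 of 3. The same split was not counted over all protein-coding genes. Among the 27 were a few without Halo-Sox2D. Rpl19 had 1 endogenous Sox2 peak inside the gene, 567.0 bp downstream of a start, and no peak of any fusion within 5 kb. Rpl17 and Rps4x had a Halo-Sox2M peak alone.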
